A study of Homo sapiens with 4 samples.

Results

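The ZNF genes that NK-92 cells express formed a set of 203 genes, out of 508 genes in the table whose symbol is ZNF followed by digits and at most 1 letter and out of 20323 genes in all. A ZNF gene was included when its estimated count had a mean of at least 300 over the 4 libraries. The mean count therefore chose the members and is given only as a description, whereas the comparison between the groups was not used in the choice. Just inside the threshold were ZNF354A, ZNF251 and ZNF707 with mean counts of 301, 303 and 307, and just outside it were ZNF614, ZNF136 and ZNF524 with 295, 296 and 299. Of the 305 ZNF genes under the threshold, 91 had a count of 0 in every library.

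NK-92 cells are an interleukin 2-dependent human line of natural killer cells. All cells carried a lentiviral pLKO.1 vector: NK scramble cells expressed a scrambled hairpin (shscramble) whereas NK shADAR1 cells expressed a hairpin directed at ADAR1, the enzyme that converts adenosine to inosine in double-stranded RNA. Each group had 2 libraries of oligo(dT)-selected mRNA, which the study describes as independent biological replicates. The labels number the knockdown libraries shADAR1-1 and shADAR1-2, which are also names of hairpins in the study. Since the study names shADAR1-2 cells as those sequenced, the numbers were read here as replicates 1 and 2 of 1 group. The libraries held 37881704 to 39960491 estimated counts, of which the 203 genes took 0.590% to 0.698%. ADAR itself, which checks the labels, was measured at 655 and 682 CPM (counts scaled by TMM to a common depth) under the scrambled hairpin and at 575 and 482 CPM under shADAR1. In every such set of 4 values, replicate 1 of a group comes before replicate 2. Its log2 fold change of -0.34 had a standard error (SE) of 0.20 and did not pass the test (edgeR adjusted p = 1.00). All 8 NK cell markers examined had counts (summed FPKM 2942 to 3338), whereas markers of B cells, myeloid cells and epithelium summed to at most 2.38, 0.658 and 0.216 FPKM. Of the 3 T cell markers, 2 had at least 10 counts in each library, and the 3 together summed to 105 to 140 FPKM.

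ZNF proteins carry zinc fingers of the C2H2 type, short modules that each hold a zinc ion and that, in tandem, read a DNA or RNA sequence. Many of them also have a KRAB domain, which recruits TRIM28 and the histone methyltransferase SETDB1 and thereby silences transposable elements, and others have a SCAN domain through which they pair with each other. The genes arose largely by duplication in clusters, above all on chromosome 19. Their 3′ UTRs often contain Alu elements, and 2 Alu copies in opposite orientation can fold into the double-stranded RNA that ADAR1 edits. The question here was therefore whether the mRNA levels of these genes differed between NK scramble and NK shADAR1 cells.

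The 3′ UTR of the longest annotated protein-coding transcript of each gene was searched for such structures in GENCODE release 29 (GRCh38). This need not be the transcript that NK-92 cells express. Words of low complexity were left out, and no word was compared with an Alu consensus. Of the 14-base words that remained, the most widely shared was present on either strand in 2252 of 19542 genes (11.5%). It occurred in 47 of the 203 ZNF genes (23.2%) and in 15.2% of all genes of at least 300 mean counts. In 10 ZNF genes, among them ZNF431, ZNF562, ZNF445 and ZNF101, it occurred in both orientations. Editing itself needs reads and was not analysed here.

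Over longer stretches, 20 of the 203 genes (9.85%) had an inverted repeat of at least 150 bases and 70% identity in the 3′ UTR. The same held for 458 of 8809 genes (5.20%) that reached 300 mean counts and had an annotated protein-coding transcript. Of the 20 ZNF genes, 18 also held the word, 12 lie on chromosome 19 and 14 had a KRAB domain by sequence pattern. The median 3′ UTR length was 1771 bases for the ZNF genes and 1320 bases for genes of at least 300 mean counts, and longer 3′ UTRs have more room for repeats. ZNF431 had the most sequence in inverted repeats, 3663 of its 12019 3′ UTR bases. ZNF562 (2918 bases), ZNF445 (2328), ZNF8 (2203) and ZNF264 (2064) came next.

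By their annotated proteins, the 203 genes had a median of 9 fingers and at most 31, in ZNF142. In 98 genes there were 10 or more fingers, in 26 genes there were 1 to 3, and in ZNF330, ZNF839 and ZNF862 the pattern for a finger was not found. A KRAB domain was found in 74 genes (36.5%), with a median of 11.5 fingers against 7 in the rest. A wider pattern, chosen after the data were seen, found KRAB in 86. Of the ZNF genes under 300 counts, 62.6% had the KRAB pattern, so the KRAB class made up a larger share of the lowly expressed family members. On chromosome 19 lay 74 of the 203 genes (36.5%), against 6.60% of all genes of at least 300 mean counts. Even so, 29.96% of the ZNF genes on chromosome 19 reached the threshold, compared with 49.4% of those elsewhere. Chromosomes 7 and 16 followed with 22 and 16 genes.

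The levels of the ZNF genes were mostly low. FPKM, the deposited level scaled by transcript length and depth, had a median of 6.66 over the 203 genes and of 19.1 over all genes of at least 300 mean counts. It was under 10 in 139 ZNF genes and at least 30 in 10. KRAB genes had a lower median FPKM than the rest (4.45 against 8.89). The lowest level was that of ZNF8 at 0.944 FPKM.

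The level of ZNF207 stood apart at 124 and 119 FPKM under the scrambled hairpin and 145 and 115 FPKM under shADAR1. ZNF207, also called BuGZ, binds microtubules and the spindle checkpoint protein BUB3. Its 12952 mean counts were the highest of the set, and the range of the NK shADAR1 libraries enclosed that of NK scramble. ZNF330, a nucleolar protein, had 58.4 and 60.6 FPKM under the scrambled hairpin and 41.6 and 59.9 FPKM under shADAR1. Only NK shADAR1 replicate 1 was low, and without it the log2 fold change of the counts moved from -0.24 to 0.054. ZNF706, a small protein with a single finger, had 50.7 and 54.4 FPKM in the NK scramble libraries, against 51.0 and 58.7 FPKM in NK shADAR1. ZNF22 was the most even of the highly expressed genes, with 48.6 and 49.8 FPKM under the scrambled hairpin and 48.6 and 49.4 FPKM under shADAR1. The order of ZNF330, ZNF706 and ZNF22 was not the same in every library, and their levels overlapped.

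Below these, ZNF655 had a mean of 40.5 FPKM, ZNF428 36.6, ZNF639 36.0, ZNF593 33.9, ZNF664 30.9 and ZNF598 30.1. The ranges of neighbours in this order overlapped, whereas every library of ZNF22 lay above those of ZNF655. ZNF598, the ubiquitin ligase that marks collided ribosomes, had 40.4 FPKM in NK scramble replicate 1 and 22.8 in replicate 2, and 34.8 and 22.2 FPKM in NK shADAR1 replicates 1 and 2. Both replicates numbered 1 were high and both numbered 2 low, so its spread lay within the groups. ZNF593, whose yeast counterpart takes part in the maturation of the large ribosomal subunit, followed the same order with 39.5 and 29.7 FPKM in the NK scramble libraries, against 39.7 and 26.6 FPKM in NK shADAR1. ZNF428 was low in NK scramble replicate 1 alone, at 24.8 FPKM against 39.7 to 42.1 in the other 3 libraries.

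**Figure D1:**
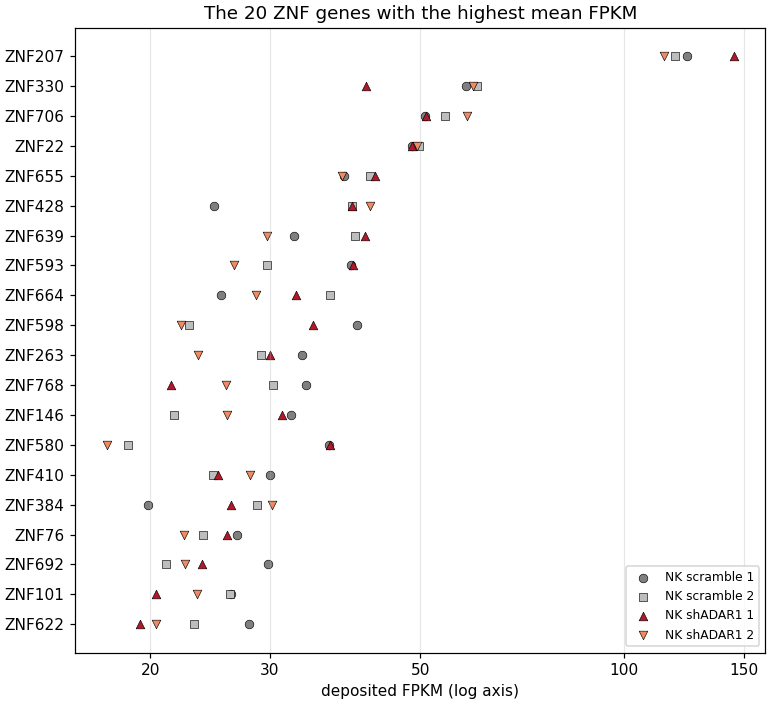
Deposited FPKM (log axis) of the 20 ZNF genes with the highest mean, 1 symbol per library. ZNF207 lies above 100 FPKM in every library, and the symbols of the groups are interleaved for most genes.

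None of the 203 genes was called different between NK shADAR1 and NK scramble cells by at least 1.5-fold with an adjusted p under 0.05. All 203 passed the filter on low counts. Their log2 fold changes ran from -0.44 to 0.61 with a median of 0.022, 113 above 0 and 90 below, and the median SE was 0.23. The test was edgeR's quasi-likelihood test over 11810 genes, which called 0% of all genes by the same rule. The smallest adjusted p among the 203 was 1.00, and DESeq2 also called 0. The study itself reported differentially expressed genes from DESeq2 at these thresholds. That was not reproduced here, as the smallest DESeq2 adjusted p over all genes was 0.15, and the reason was not tested. The absence of ZNF calls is therefore not particular to these genes. At an unadjusted p under 0.05, 1 gene was higher (ZNF117) and 0 were lower, which is 0.493% of the set, against 1.7% higher, 0.779% lower and 2.48% in either direction over all genes tested (1.58%, 0.802% and 2.38% over genes of at least 300 mean counts). DESeq2 likewise gave 1 higher and 0 lower at that level. With an SE of 0.19 to 0.38 on the log2 scale, differences of this size were not detectable with 2 libraries per group. In bulk RNA, a change in a part of the cells and a change in the level per cell cannot be told apart.

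**Figure D2:**
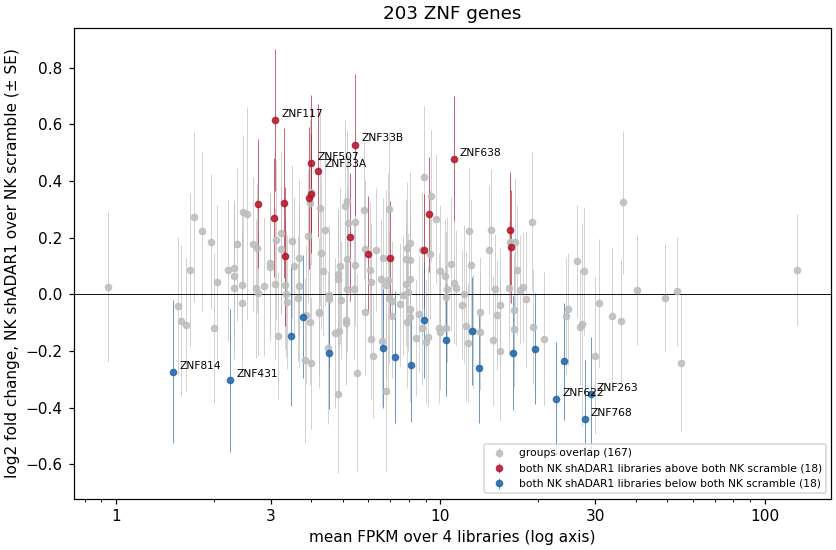
Log2 fold change between NK shADAR1 and NK scramble cells (points, with bars of 1 SE) against mean FPKM (log axis) for the 203 ZNF genes. Red and blue points are the 18 genes higher and the 18 lower in both NK shADAR1 libraries than in both NK scramble libraries, and the values scatter around 0 at every level.

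In 36 genes the groups did not overlap, 18 with both NK shADAR1 libraries above both NK scramble libraries and 18 with both below. This is 17.7% of the set, against 26% of all genes tested and 24.6% of genes of at least 300 mean counts. By direction, the 18 genes on either side were 8.87%, against 13.3% higher and 12.6% lower over all genes tested. Non-overlapping groups were thus less frequent among the ZNF genes than among all genes, a description with no test. The genes on the higher side were ZNF117, ZNF131, ZNF17, ZNF248, ZNF251, ZNF33A, ZNF33B, ZNF507, ZNF518A, ZNF548, ZNF638, ZNF700, ZNF710, ZNF789, ZNF792, ZNF831, ZNF839 and ZNF862. Those on the lower side were ZNF101, ZNF202, ZNF232, ZNF263, ZNF274, ZNF275, ZNF317, ZNF430, ZNF431, ZNF473, ZNF48, ZNF622, ZNF672, ZNF746, ZNF747, ZNF768, ZNF772 and ZNF814.

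ZNF117 (ENSG00000152926, chromosome 7, 64971776 to 65006684, minus strand; positions here are from GENCODE release 29, GRCh38) had the largest positive log2 fold change, 0.61 (SE 0.25). It was measured at 14.7 and 14.6 CPM under the scrambled hairpin and at 27.4 and 17.5 CPM under shADAR1. Most of the difference came from NK shADAR1 replicate 1, and without this library the log2 fold change was 0.26. ZNF117 overlaps ERV3-1, the gene of an endogenous retroviral envelope, on the same strand, and its counts were fractional in all 4 libraries, so reads may have been divided between them.

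ZNF33B (chromosome 10, 42574185 to 42638568) and ZNF33A (chromosome 10, 38010650 to 38065088) are KRAB genes with 16 fingers each whose coding sequences are 96.3% identical. ZNF33B had 18.1 and 12.9 CPM under the scrambled hairpin and 25.6 and 19.1 CPM under shADAR1 (log2 fold change 0.53, SE 0.25). ZNF33A had 16.7 and 14.2 CPM in the NK scramble libraries, against 24.2 and 17.6 CPM in NK shADAR1 (log2 fold change 0.44, SE 0.24). In both, NK shADAR1 replicate 1 was the highest library and NK scramble replicate 2 the lowest. Without NK shADAR1 replicate 1 the log2 fold changes were 0.31 for ZNF33B and 0.19 for ZNF33A. That of ZNF33B was 0.30 without NK scramble replicate 2 and 0.79 without NK scramble replicate 1. The FPKM of ZNF33B did not follow its counts, at 6.98 and 4.41 FPKM against 5.72 and 4.72 FPKM, and limma on log2(FPKM + 0.1) gave a log2 fold change of -0.092. Values of this pair are uncertain, since near-identical reads can be assigned to either gene.

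ZNF638 (chromosome 2, 71276561 to 71435069), a nuclear protein that recruits the HUSH silencing complex to unintegrated retroviral DNA, had 45.4 and 32.7 CPM under the scrambled hairpin and 57.5 and 51.3 CPM under shADAR1. Its log2 fold change was 0.48 (SE 0.22), 0.26 without NK scramble replicate 2, the lowest library, and 0.73 without NK scramble replicate 1. ZNF507 (chromosome 19, 32345594 to 32387667) had 27.7 and 22.7 CPM in the NK scramble libraries, against 41.4 and 28.1 CPM in NK shADAR1, with a log2 fold change of 0.46 (SE 0.24). NK shADAR1 replicate 2 lay just above NK scramble replicate 1, and the log2 fold change was 0.16 without NK shADAR1 replicate 1 and 0.71 without replicate 2.

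On the lower side, ZNF768 (chromosome 16, 30524001 to 30526821) had 75.4 and 67.8 CPM under the scrambled hairpin and 46.9 and 58.6 CPM under shADAR1. Its log2 fold change of -0.44 (SE 0.21) was the most negative of the set and became -0.29 without NK shADAR1 replicate 1. ZNF622 (chromosome 5, 16451519 to 16465792), which takes part in the late maturation of the large ribosomal subunit, had 47.3 and 40.2 CPM in the NK scramble libraries, against 31.7 and 36.0 CPM in NK shADAR1 (log2 fold change -0.37, SE 0.20). ZNF263 (chromosome 16, 3263800 to 3301401), a DNA-binding factor with SCAN and KRAB domains, had 76.3 and 64.0 CPM under the scrambled hairpin and 54.6 and 55.3 CPM under shADAR1 (log2 fold change -0.35, SE 0.20). The NK shADAR1 libraries of ZNF263 lay close together, and the gap to NK scramble narrowed to -0.22 without NK scramble replicate 1.

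ZNF431 (chromosome 19, 21142024 to 21196053), the gene with the most sequence in inverted repeats, had 9.37 and 8.53 CPM in the NK scramble libraries, against 7.53 and 6.96 CPM in NK shADAR1 (log2 fold change -0.30, SE 0.25). Its FPKM overlapped between the groups, at 2.71 and 1.88 FPKM against 2.13 and 2.27 FPKM. The log2 fold change was -0.036 with limma on log2(FPKM + 0.1) and -0.52 with offsets for transcript length and GC content. ZNF814 (chromosome 19, 57848731 to 57889074) had 8.51 and 9.47 CPM under the scrambled hairpin and 7.80 and 7.07 CPM under shADAR1 (log2 fold change -0.27, SE 0.25), and it overlaps ZNF587 on the opposite strand. Both are among the less abundant genes of the set. None of these 10 genes passed the test (edgeR adjusted p = 1.00 for each).

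**Figure D3:**
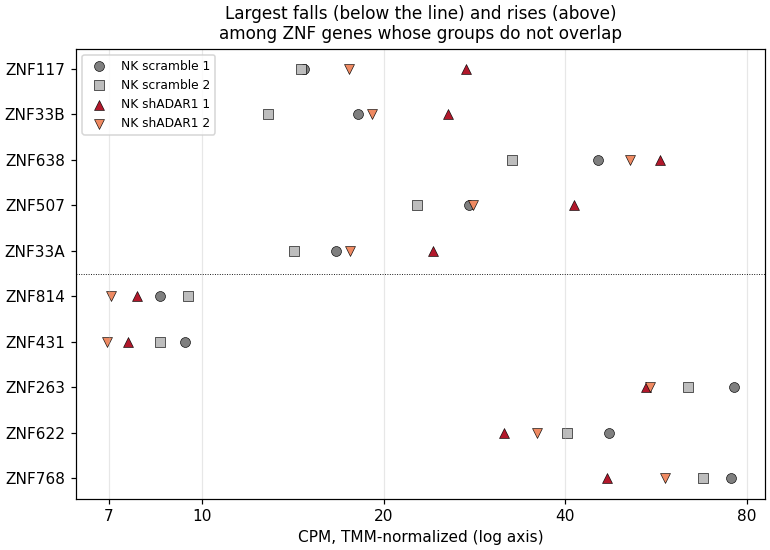
CPM (log axis) in each library for the 5 largest positive and the 5 largest negative log2 fold changes among ZNF genes whose groups did not overlap. The NK shADAR1 symbols lie to the right of NK scramble above the line and to the left below it, and in ZNF117 and ZNF507 only NK shADAR1 replicate 1 lies far from the rest.

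The genes with inverted repeats in the 3′ UTR had a median near that of the other ZNF genes when both replicates of each group were compared. Their median log2 fold change was 0.0050 over 20 genes, against 0.022 over the 183 without them and -0.029 over the 458 genes of any family with inverted repeats and a mean of at least 300 counts. The pairs of libraries differed. NK shADAR1 replicate 1 was above NK scramble replicate 1 in 16 of the 20 genes (80%, median 0.15). NK shADAR1 replicate 2 was above NK scramble replicate 2 in 3 (15%, median -0.11). These shares were 48.7% and 41.3% of the 458 genes, and 62.1% and 38.9% of the 203 ZNF genes. Set against the other NK scramble library, the direction turned. NK shADAR1 replicate 1 was above NK scramble replicate 2 in 7 of the 20 (35%, median -0.094). NK shADAR1 replicate 2 was above NK scramble replicate 1 in 11 (55%, median 0.048). These shares were 29.3% and 64.8% of the 458 genes, and 68.0% and 36.5% of the 203 ZNF genes. Groups did not overlap in 3 of the 20 (15%), higher for ZNF789 and lower for ZNF431 and ZNF101. This compares with 95 of the 458 (20.7%) and with 24.6% of all genes of at least 300 mean counts. ZNF562, next to ZNF431 in the extent of its repeats, had 44.4 and 46.9 CPM in the NK scramble libraries, against 37.7 and 46.5 CPM in NK shADAR1, with NK shADAR1 replicate 1 alone low. ZNF101 had 52.9 and 55.0 CPM under the scrambled hairpin and 40.02 and 51.6 CPM under shADAR1 (log2 fold change -0.24, SE 0.21), again with replicate 1 the lowest. ZNF445 had 30.3 and 43.2 CPM in the NK scramble libraries, against 36.0 and 37.5 CPM in NK shADAR1, so the NK shADAR1 libraries lay between those of NK scramble. In 11 of the 20 genes NK scramble replicate 2 was the highest library, compared with 31 of the 183 others. It was likewise the highest in 185 of the 458 genes of any family with inverted repeats (40.4%), against 24.3% of genes of at least 300 mean counts.

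The groups also overlapped in most genes of every structural class. The median log2 fold change was 0.032 over the 74 KRAB genes and 0.017 over the 129 others. Groups did not overlap in 6 KRAB genes on each side (16.2% in all) and in 12 others on each side (18.6%), both below the 24.6% of genes of at least 300 mean counts. On chromosome 19 it was -0.00063 over 74 genes and elsewhere 0.028 over 129. Genes with 10 or more fingers had a median of 0.030 and those with fewer 0.019. The 128 tested ZNF genes under 300 counts had a higher median of 0.12, with 25 higher (19.5%) and 10 lower (7.81%) without overlap, and 1 higher at an unadjusted p under 0.05. All 2953 tested genes under 300 counts were alike in this, with a median of 0.11 and with 20.8% higher and 9.14% lower without overlap. In the 46 genes of the ZFP, ZSCAN, ZKSCAN and ZBTB families that reached 300 mean counts the median was -0.011. Without overlap, 5 were higher (10.9%) and 4 lower (8.7%), against 10.8% and 13.8% of genes of at least 300 mean counts.

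The difference between the NK shADAR1 replicates exceeded that between the groups. In NK shADAR1 replicate 1, 146 of the 203 genes lay above their own mean over the 4 libraries, against 113 in NK scramble replicate 1, 90 in NK scramble replicate 2 and 63 in NK shADAR1 replicate 2. The median log2 difference between NK shADAR1 replicates 1 and 2 was 0.19 for the ZNF genes and -0.020 for genes of at least 300 mean counts. Between NK scramble replicates 1 and 2 the medians were 0.053 and -0.014. NK shADAR1 replicate 1 was the highest library in 92 ZNF genes (45.3%, against 26.2% of genes of at least 300 mean counts) and NK shADAR1 replicate 2 in 15 (7.39%, against 21.7%). In 154 genes (75.9%) the gap between the NK shADAR1 replicates was larger than the fold change between the groups, compared with 69.5% of genes of at least 300 mean counts. These are unlike measures, since the gap is between single libraries and the fold change between groups, and a larger gap was common among all genes.

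The direction of the median between the groups therefore depended on which libraries were set against each other. NK shADAR1 replicate 1 exceeded NK scramble replicates 1 and 2 by a median of 0.11 and 0.13, whereas NK shADAR1 replicate 2 differed from them by -0.090 and -0.053. With NK shADAR1 replicate 1 left out the median log2 fold change of the 203 genes was -0.051, compared with 0.093 when replicate 2 was left out. For genes of at least 300 mean counts these medians were -0.0033 and -0.047. These 2 libraries also differed in the type I interferon response, as 20 core genes of it (ISG15, MX1, IFIT1 and others) had a median log2 difference of 1.42 between NK shADAR1 replicates 1 and 2, and in ADAR, as given above. Whether either had a part in the difference among ZNF genes was not tested.

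**Figure D4:**
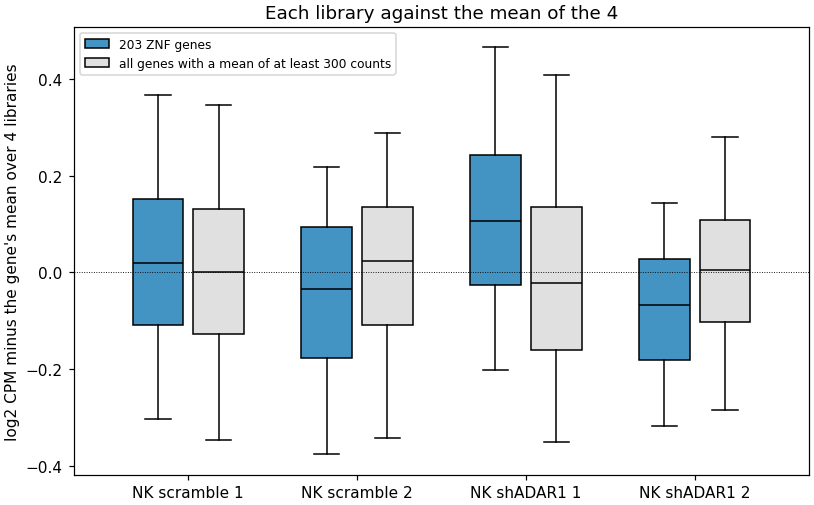
Log2 CPM in each library minus the gene's mean over the 4 libraries, for the 203 ZNF genes (blue) and for all genes of at least 300 mean counts (grey); boxes span the quartiles, the line is the median and whiskers reach the 5th and 95th percentiles. The ZNF genes are highest in NK shADAR1 replicate 1 (median 0.11) and lowest in NK shADAR1 replicate 2 (median -0.068), whereas the grey medians stay between -0.021 and 0.023.

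Across the 203 genes the Spearman correlation of the log2 fold change between the groups with the GC content of the longest transcript was -0.38, compared with -0.20 over 8809 genes of at least 300 mean counts. These are correlations across genes of the same 4 libraries, and genes are not independent replicates. In the 51 genes of lowest GC content (33.2% to 41.7%) the median log2 fold change was 0.087, with 38 of 51 above 0. The 51 and 50 genes between had medians of 0.072 and 0.017, and the 51 genes of highest GC content (55.1% to 71.1%) had -0.076, with 34 of 51 below 0. All genes of at least 300 mean counts in the same GC ranges had medians of 0.052, -0.0057, -0.035 and -0.046.

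Single pairs of libraries did not follow this order step by step. Between NK shADAR1 replicate 1 and NK scramble replicate 1 the correlation was -0.28, and between the replicates numbered 2 it was -0.24. Over all genes of at least 300 mean counts it was -0.24 in the former pair and 0.0025 in the latter. From the lowest to the highest GC range, the median differences of the ZNF genes were 0.16, 0.18, 0.11 and -0.084 between the replicates numbered 1, and 0.11, -0.11, -0.087 and -0.060 between those numbered 2. They were 0.36, 0.11, -0.10 and 0.25 between NK shADAR1 replicate 1 and NK scramble replicate 2. Between NK shADAR1 replicate 2 and NK scramble replicate 1 they were -0.11, -0.036, 0.031 and -0.33. In each of these pairs the lowest GC range had a higher median than the highest, whereas the ranges between broke the order. Genes of high GC content also differed within a group, since the 51 genes of highest GC content were 0.27 higher in NK scramble replicate 1 than in replicate 2. After offsets for length and GC were fitted to every library, the median log2 fold change of the 203 genes was -0.024, and 19 genes were higher (9.36%) and 27 lower (13.3%) without overlap. With the same offsets, genes of at least 300 mean counts had a median of -0.045, and 9.62% of them were higher and 17.9% lower. Without offsets the medians were 0.022 for the ZNF genes and -0.017 for genes of at least 300 mean counts, so both moved down. Transcript length correlated at 0.31 with log2 fold change across the 203 genes, against 0.16 over genes of at least 300 mean counts. It did so at 0.36 between the replicates numbered 1 and at -7.5e-05 between those numbered 2. Whether GC content, length or another property they share goes with the difference was not tested.

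**Figure D5:**
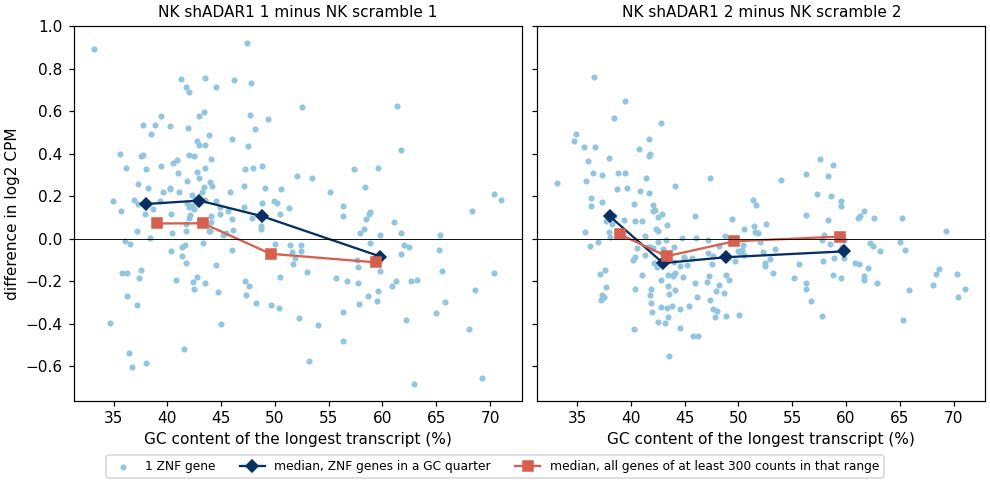
Difference in log2 CPM against the GC content of the longest transcript (%) for NK shADAR1 minus NK scramble replicate 1 (left) and replicate 2 (right). Pale points are the 203 ZNF genes, diamonds the medians of 4 GC ranges and squares the medians of all genes of at least 300 mean counts in the same ranges. The diamonds are above 0 in the lower 3 ranges and at -0.084 in the highest on the left, and on the right they are at 0.11 in the lowest range and at -0.11, -0.087 and -0.060 in the others.

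Grouped by role, no list of ZNF genes had a member that passed the test. Of 23 regulators of promoters and chromatin without KRAB, 19 were in the set, 14 with a log2 fold change above 0 and 5 below, with a median of 0.12 against 0.000028 over all genes tested. The median difference was 0.16 and 0.21 from NK shADAR1 replicate 1 to NK scramble replicates 1 and 2, and -0.031 and 0.0040 from NK shADAR1 replicate 2. NK shADAR1 replicate 1 was the highest library in 10 of the 19, and without it the median log2 fold change was 0.029. Groups did not overlap in 1 of the 19 (5.26%), against 24.6% of genes of at least 300 mean counts. This gene, ZNF131, had 35.8 and 35.7 CPM under the scrambled hairpin and 47.0 and 36.6 CPM under shADAR1. ZNF292 had 65.3 and 44.8 CPM in the NK scramble libraries, against 64.1 and 75.9 CPM in NK shADAR1 (log2 fold change 0.35, SE 0.23), and 0.094 without NK scramble replicate 2. ZNF217, a partner of the corepressors CoREST and CtBP, had 70.4 and 102.9 CPM under the scrambled hairpin and 119 and 88.2 CPM under shADAR1. NK shADAR1 replicate 1 was highest, and replicate 2 lay between the NK scramble libraries. ZNF318 had 85.5 and 115 CPM in the NK scramble libraries, against 122 and 112 CPM in NK shADAR1, and without NK scramble replicate 1 its log2 fold change moved from 0.23 to 0.026. ZNF609, ZNF592, ZNF142, ZNF740 and ZNF335 had log2 fold changes of 0.026, -0.037, -0.12, 0.13 and 0.087, each smaller than its SE of 0.20 to 0.23.

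All 10 genes of the list on RNA, ribosomes and mitosis were in the set, 6 with a log2 fold change above 0 and 4 below (median 0.097, and -0.018 without NK shADAR1 replicate 1). ZNF638 was higher and ZNF622 lower without overlap, as given above, which is 20% of the list against 24.6% of genes of at least 300 mean counts. ZNF346, a zinc finger protein that binds double-stranded RNA, had 35.6 and 39.0 CPM under the scrambled hairpin and 34.9 and 36.0 CPM under shADAR1 (log2 fold change -0.074, SE 0.19). ZNF326, which takes part in transcript elongation and splicing, had 31.5 and 33.8 CPM in the NK scramble libraries, against 39.6 and 33.0 CPM in NK shADAR1. ZNF451, a SUMO ligase, had 26.4 and 24.1 CPM under the scrambled hairpin and 34.7 and 25.5 CPM under shADAR1. ZNF106, an RNA-binding protein, had 50.0 and 63.5 CPM in the NK scramble libraries, against 70.2 and 56.3 CPM in NK shADAR1. In the last 3, NK shADAR1 replicate 1 was the highest library and replicate 2 lay within the range of NK scramble.

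The SCAN genes went the other way in number, with 3 of 10 members above 0 and 7 below (median -0.089, and -0.0065 without NK shADAR1 replicate 2). ZNF202 had 21.1 and 23.1 CPM under the scrambled hairpin and 20.7 and 17.97 CPM under shADAR1 (log2 fold change -0.19, SE 0.21, and -0.095 without NK shADAR1 replicate 2), and ZNF263 was given above. ZNF24 had 83.5 and 84.4 CPM in the NK scramble libraries, against 85.5 and 75.2 CPM in NK shADAR1. ZNF496, ZNF394, ZNF444, ZNF174 and ZNF397 had log2 fold changes of -0.11, -0.12, -0.20, 0.015 and 0.10, with overlapping groups in each. The median GC content of the SCAN genes was 52.2%, compared with 45.2% over the 203 genes.

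Of 9 KRAB genes listed as repressors of retroelements or as guards of imprints, 2 reached the threshold. ZNF587, which represses endogenous retroviruses of the HERV-K group, had 37.4 and 47.4 CPM under the scrambled hairpin and 40.6 and 44.7 CPM under shADAR1. The NK shADAR1 libraries lay between the NK scramble libraries, as they did for ZNF445, a guardian of genomic imprints. ZNF587 shares 99.1% of its coding sequence with ZNF417, so its counts are uncertain. In all, 13 of the 203 genes had another ZNF gene at least 90% identical over at least 80% of the coding sequence, 59 had fractional counts in some library and 71 overlap another gene of the table. Whether the counting used strand is not given in the sources used here.

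The corepressors through which KRAB proteins act were likewise without a call. Of 15 genes for KRAB corepressors and the HUSH complex, 11 had a log2 fold change above 0 and 4 below (median 0.076, and 0.00057 without NK scramble replicate 1). An unadjusted edgeR p under 0.05 was found for 0 of them, against 2.48% of all genes tested. Groups did not overlap in 4 (26.7%), 3 higher and 1 lower, against 24.6% of genes of at least 300 mean counts. TRIM28, the scaffold that binds the KRAB domain, had 723 and 560 CPM in the NK scramble libraries, against 558 and 540 CPM in NK shADAR1. The NK shADAR1 libraries lay only just below NK scramble replicate 2. SETDB1, which sets the repressive histone mark, had 55.5 and 67.5 CPM under the scrambled hairpin and 65.3 and 73.9 CPM under shADAR1. TASOR, a HUSH subunit, had 128 and 113 CPM in the NK scramble libraries, against 179 and 131 CPM in NK shADAR1 (log2 fold change 0.36, SE 0.22), with NK shADAR1 replicate 1 again the highest.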

How the data were processed

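The sources describe oligo(dT) selection, an NEBNext Ultra RNA kit, sequencing on an Illumina NovaSeq and, per the submitters' processing notes, fastp 0.18.0. The aligner, counting program and genome build are not given in the sources used here. The authors deposited an estimated count per gene, which need not be whole and is not normalized, and an FPKM value per gene and library. Of 20323 genes, 19721 matched a symbol. The members and lists were chosen with earlier results of these data known. Named genes were ADAR, the 10 members with the highest mean FPKM, the 5 largest positive and 5 largest negative log2 fold changes among members whose groups did not overlap, up to 8 members of each list by mean count, and corepressors. Members named otherwise were chosen after their values were seen.

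Estimated counts were rounded and tested in R 4.3.3 with the quasi-likelihood test of edgeR 4.0.16 (filterByExpr, minimum count 10, TMM, Benjamini-Hochberg over 11810 genes), tested on simulated data first. The SE is the log2 fold change divided by the square root of the F statistic. Alternatives were DESeq2 1.42.0, limma 3.58.1 on log2(FPKM + 0.1), other scalings, filters and thresholds, the replicate number as a block, length and GC offsets, and each library left out. Length, GC content, 3′ UTR and protein patterns come from GENCODE release 29, and inverted repeats from blastn 2.17.0. The sequences of the repeats are not reported here. An exact permutation test was not used, since 2 libraries against 2 are too few for it. The precision is set by these 2 libraries per group.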

Additional observations from a re-analysis of the deposited data

How the results depend on the processing

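No ZNF gene was called under any alternative. The median log2 fold change ranged from -0.051 (without NK shADAR1 replicate 1) to 0.093 (without NK shADAR1 replicate 2). In the same fits genes of at least 300 mean counts had medians of -0.0033 and -0.047. At an unadjusted p under 0.05, 1 ZNF gene was higher and 0 were lower as reported. The count was 3 higher (1.48%) with every gene of 1 count, against 1.86% of all genes tested in that fit. It was 2 higher (0.985%) with a mean of at least 50 counts, against 1.72%. With length and GC offsets it was 0 higher and 1 lower (0.493%), against 1.46% and 1.38%. With limma on FPKM it was 1 higher and 1 lower (0.493% each), against 1.69% and 0.72%. In the main fit, 1.7% of all genes tested were higher and 0.779% lower. There, 2 ZNF genes were higher with a member threshold of 100 counts and 0 with 1000 counts. With the ZFP, ZSCAN, ZKSCAN and ZBTB families added, 2 were higher and 1 lower. Leaving out 1 library gave 0 to 8 higher and 0 to 3 lower, which is 0% to 3.94% and 0% to 1.48% of the set, against 0.49% to 3.87% and 0.816% to 1.93% of all genes tested in the same fits. Over all genes tested, groups did not overlap in 13.3% on the higher and 12.6% on the lower side. At a threshold of 100 counts they did not overlap in 30 of 273 ZNF genes on the higher and 20 on the lower side. At 1000 counts they did not overlap in 7 of 83 on the higher and 10 on the lower side. With 1 library left out, 31 to 93 of the 203 ZNF genes were higher and 33 to 81 lower without overlap. Without NK shADAR1 replicate 1, 31 ZNF genes were higher (15.3%) and 81 lower (39.9%), against 29.7% and 29.1% of genes of at least 300 mean counts. Without NK shADAR1 replicate 2, 93 were higher (45.8%) and 33 lower (16.3%), against 29% and 37.8%.

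The replicate numbers in the labels are not said to mark a shared batch. Over 11810 genes, the difference of replicates 1 and 2 in NK scramble correlated at 0.31 with that in NK shADAR1. With the replicate block, 6 ZNF genes were higher (2.96%) and 1 lower (0.493%) at an unadjusted p under 0.05, against 3.78% and 1.99% of all genes tested. Of all genes, 681 passed at that level with the block and 293 without it, and with the block 13 had an adjusted p under 0.05. With the block and the length and GC offsets, 3 ZNF genes were higher (1.48%) and 2 lower (0.985%), against 2.99% and 3.19% of all genes tested.

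Of 546 values of single named genes under alternatives, 491 kept their sign and 55 did not, none of them past the threshold. The cause of each was not tested. With length and GC offsets, and with the block added to them, the log2 fold change was -0.14 and -0.14 for ZNF207, -0.044 and -0.042 for ZNF706, -0.028 and -0.021 for ZNF326, -0.029 and -0.047 for ZNF609, -0.065 and -0.065 for ZNF655, and -0.051 and -0.057 for ZNF587. In these fits the median over genes of at least 300 mean counts was itself -0.045 and -0.049. With limma on FPKM it was 0.017 for ZNF346, 0.0018 for ZNF664, 0.033 for ZNF445 and -0.092 for ZNF33B. That of ZNF445, -3.6e-05 as reported, was 6.5e-05 with RLE scaling, 0.012 with upper quartile scaling, 0.0087 with a mean of at least 50 counts and 0.021 with the replicate block. Leaving out 1 library moved ZNF207 from -0.025 to 0.19, ZNF174 from -0.016 to 0.039, ZNF106 from -0.011 to 0.33, ZNF330 from -0.62 to 0.054, ZNF142 from -0.34 to 0.12, ZNF706 from -0.071 to 0.086, ZNF639 from -0.28 to 0.069 and ZNF740 from -0.073 to 0.35. The same range was -0.33 to 0.14 for ZNF593, -0.28 to 0.021 for ZNF394, -0.25 to 0.0065 for ZNF496, -0.079 to 0.050 for ZNF22, -0.17 to 0.095 for ZNF592, -0.44 to 0.083 for ZNF444, -0.57 to 0.23 for ZNF598, -0.16 to 0.025 for ZNF24 and -0.29 to 0.28 for ZNF664. It was -0.12 to 0.16 for ZNF609, -0.24 to 0.27 for ZNF445, -0.037 to 0.25 for ZNF397, -0.054 to 0.079 for ZNF655, -0.13 to 0.31 for ZNF335 and -0.16 to 0.18 for ZNF587. The depth leaves counting error small for genes of at least 300 counts, so the spread between 2 libraries per group limits what could be detected.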
